A study of Homo sapiens with 2 samples.

Results

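The genes described here encode intermediate filament proteins and a filament linker: the keratins KRT7, KRT8, KRT10, KRT18, KRT19, KRT20 and KRT80, vimentin (VIM), the A-type lamin gene LMNA and plectin (PLEC). They were taken by symbol, using every probe set for which the platform annotation gives one of these symbols as the only gene. This gave 10 of the 19775 genes measured and 23 of the 54675 probe sets. Gene expression was measured on 2 Affymetrix arrays of RKO, an established cell line from a human colon carcinoma. The sh-BCLAF1-L array held RNA from cells infected with a retrovirus carrying the first of the hairpins against the L form of BCLAF1. The sh-Luci array held RNA from cells infected with a control hairpin against luciferase. Both cultures were grown under the same conditions and selected with puromycin, and the labels describe the products as stable lines. Each group was 1 array, so every value is a single reading, no spread between cultures is known and no test between groups was possible. With 1 hairpin against BCLAF1, a loss of BCLAF1 and any further action of that hairpin cannot be told apart.

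Intermediate filaments are ropelike polymers that give cells and nuclei mechanical strength. Keratin filaments form from pairs of a type I (acidic) and a type II (basic to neutral) keratin, and the simple epithelia of the gut are built mainly on KRT8 with KRT18, KRT19 and, in differentiated cells, KRT20. Vimentin is the type III protein of mesenchymal cells and of many carcinoma lines, lamins A and C form a meshwork under the inner nuclear membrane, and plectin ties filaments to each other, to actin and to membrane junctions.

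Intensities are the deposited linear values, and a difference is log2(value + 1) on the sh-BCLAF1-L array minus that on the sh-Luci array. A gene was called detected when its brightest probe set had a mean over both arrays at or above the 40th percentile of all probe sets, an intensity of 63.7. The differences of probe sets that read 1 gene spread around each other with a pooled SD of 0.16 (log2 scale), or 1.12-fold. That SD covers neither cultures nor arrays. Intensities of different probe sets do not rank genes by abundance, because each probe set binds with its own strength. BCLAF1 itself read 945 on the sh-BCLAF1-L array and 2505 on the sh-Luci array on its brightest probe set, a 2.65-fold lower value, and all 6 of its probe sets were lower. All 18 probe sets of the biotin-labelled bacterial spike-ins were higher on the sh-BCLAF1-L array, with a median difference of 0.20. The 3' probe set of ACTB divided by its 5' probe set gave 3.81 on the sh-BCLAF1-L array and 3.41 on the sh-Luci array. The part of these array differences in the values below was not tested.

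Of the 10 genes, 7 were detected: KRT7, KRT8, KRT10, KRT18, VIM, LMNA and PLEC. KRT19, KRT20 and KRT80 were not. None of the 7 differed by 1.5-fold, a size reached by 0.434% of all 14507 detected genes in the higher and by 0.2% in the lower direction. KRT18 came closest, with a value 1.45-fold lower on the sh-BCLAF1-L array. It was the only one of the 7 with a difference of at least 0.32 on the log2 scale, a lower threshold that 2.21% of detected genes passed in the lower direction and 4.16% in the higher direction. The 7 differences had a median of 0.023, against 0.019 over all detected genes. Of the 7 genes, 4 were higher and 3 lower. Over all detected genes, 55% were higher. After centring on the median over all probe sets, 0.026, 3 were higher and 4 lower, because KRT8 changed sign. KRT18 was the lowest at -0.54, and the other detected genes lay between -0.26 for PLEC and 0.26 for VIM.

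**Figure D1:**
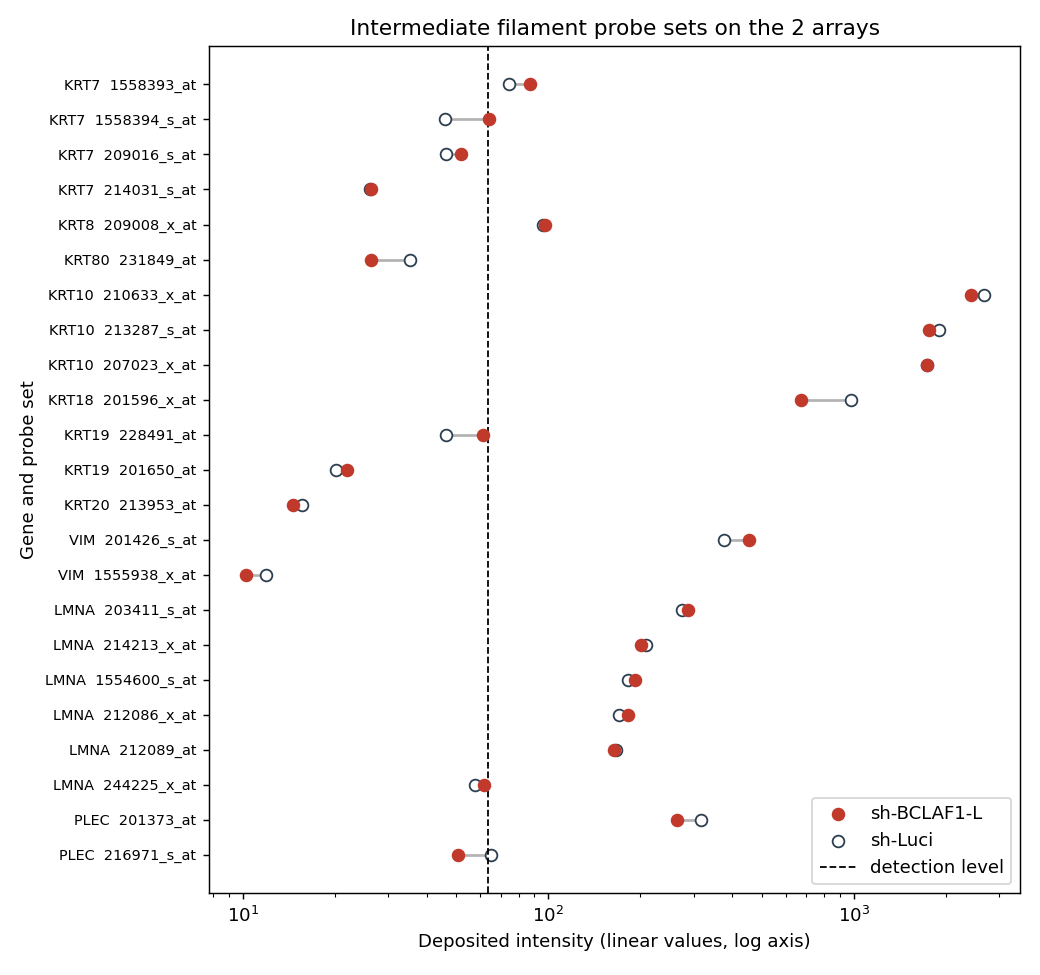
Deposited intensity of each of the 23 probe sets on the sh-BCLAF1-L array (filled) and the sh-Luci array (open), on a log axis, with a dashed line at the detection intensity of 63.7. The points of most probe sets lie close together; KRT18 reads 674 on the sh-BCLAF1-L array against 979 on the sh-Luci array, and all probe sets of KRT19, KRT20 and KRT80 have a mean left of the line.

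The promoters of VIM and KRT10 are shown because VIM had the highest difference of the detected genes and KRT10 was the keratin read by most detected probe sets. RefSeq promoter windows (GRCh38.p14) were matched by symbol for 5 of the 10 genes, LMNA, VIM, KRT8, KRT10 and KRT20. The 250 bases before the annotated start are printed for the pair, 5' to 3' on the gene's own strand. They are VIM at chr10:17227991-17228240, plus strand, and KRT10 at chr17:40822615-40822864, minus strand. Capitals mark matches to the motifs searched.
VIM: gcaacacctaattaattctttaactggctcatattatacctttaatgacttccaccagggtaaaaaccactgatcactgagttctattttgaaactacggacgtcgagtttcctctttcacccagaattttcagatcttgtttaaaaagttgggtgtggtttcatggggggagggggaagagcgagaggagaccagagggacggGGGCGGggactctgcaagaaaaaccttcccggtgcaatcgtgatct
KRT10: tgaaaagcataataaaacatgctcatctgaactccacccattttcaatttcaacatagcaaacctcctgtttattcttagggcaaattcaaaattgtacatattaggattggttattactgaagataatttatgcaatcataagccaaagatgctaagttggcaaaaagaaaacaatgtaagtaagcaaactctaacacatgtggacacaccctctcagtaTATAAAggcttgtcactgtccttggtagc
The motifs were the GC box GGGCGG, the TATA box TATAAA and the AP-1 site TGANTCA, each on both strands. The VIM window holds 1 GC box, from 46 to 41 bases before the start, and no match to the others. The KRT10 window holds 1 TATA box, from 29 to 24 bases before the start, and no match to the others. GC content is 46.0% in the VIM window and 34.8% in the KRT10 window, against a median of 58.0% over all 35116 windows of the same length. Of these windows, 42.6% hold a GC box, 10.7% a TATA box and 6.57% an AP-1 site. A match describes the letters only, and no binding was measured.

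KRT7, KRT8 and KRT80 are type II keratins. KRT8, the type II keratin that pairs with KRT18 in simple epithelia, read 97.6 on the sh-BCLAF1-L array and 96.0 on the sh-Luci array. Its difference of 0.023 lay near the median of all detected genes, and its sign turned (-0.0031) after subtraction of the median difference, and also after a loess curve (-0.0017) or quantile normalization (-0.0066). KRT8 rested on 1 probe set, with an _x_at name, which marks probes that can match several transcripts. RefSeq (GRCh38.p14) lists 52 pseudogenes named for KRT8, and whether any of them contributes signal was not tested.

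KRT7, a keratin of ducts and glands that is usually scarce in the colon, was higher on all 4 of its probe sets, of which 1 was detected. The detected probe set, just inside the detection level, read 87.5 on the sh-BCLAF1-L array and 74.3 on the sh-Luci array, a difference of 0.23 or 1.17-fold. Among all detected genes, 9.22% had a higher difference. The probe sets below detection read 64.0 against 46.0, 51.7 against 46.4, and 26.3 against 26.1, the sh-BCLAF1-L value first in each pair. Their differences were 0.47, 0.15 and 0.0085. The 4 values thus share a direction but not a size, and the highest of them comes from a dim probe set. It lay inside the central 95% of 5467 probe sets of like brightness (all probe sets were split into 10 equal classes by mean intensity), which ran from -0.38 to 0.47.

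KRT80, a type II keratin known from several epithelia, was below detection, with 26.4 on the sh-BCLAF1-L array and 35.4 on the sh-Luci array. Its difference was -0.41. Probe sets as dim as this spread widely, with a central 95% from -0.48 to 0.60, and the KRT80 value lay inside that range.

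Among the type I keratins, KRT18 had the largest difference. KRT18, the usual partner of KRT8, read 674 on the sh-BCLAF1-L array and 979 on the sh-Luci array. The value on the sh-BCLAF1-L array was 68.9% of that on the sh-Luci array, a difference of -0.54. Only 49 of the 14507 detected genes, or 0.338%, had a lower difference. The size was 3.39 times the SD between probe sets of the same gene. In its intensity class, the brightest of the 10, the central 95% of probe set differences ran from -0.26 to 0.30. KRT18 was the only one of the 23 probe sets outside the range of its own class, where 5.01% of all probe sets lie by the way the range is drawn. Its difference stayed between -0.56 and -0.52 under the 7 alternative settings that gave it a value. With 1 probe set, the median over probe sets and the changes of filter could not alter it, so they do not check the value.

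The KRT18 value also rested on 1 probe set with an _x_at name, so no second probe set checks it. RefSeq lists 68 pseudogenes named for KRT18, and their part in the signal was not tested. The annotated spans of KRT8 and KRT18 overlap in GRCh38.p14, both on chromosome 12, and where their probes lie was not analysed here. Set against its partner, KRT18 differed from KRT8 by -0.56 on the log2 scale, or 1.47-fold. That is 2.5 times 0.22, the SD of a difference between 2 probe sets of the same gene. That SD covers neither cultures nor arrays, nor the spread between different genes such as KRT18 and KRT8. The KRT8 value behind this comparison comes from a dim probe set not far above the detection level, and how much of its signal is background was not tested, so the comparison does not show that KRT8 RNA was alike in both cultures.

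KRT10, the type I keratin best known from the upper layers of the epidermis, was read by 3 bright probe sets. They read 2426 on the sh-BCLAF1-L array and 2663 on the sh-Luci array, 1759 and 1899, and 1736 and 1736, in the same order of arrays. The differences were -0.13, -0.11 and -0.00043, so none of the 3 was higher, and all were within the SD between probe sets of the same gene. All 3 probe sets have an _s_at or _x_at name, and matches to other transcripts were not tested. KRT10 differed from KRT18 by 0.40, or 1.32-fold, and the 1.45-fold lower value of KRT18 was not shared by this other type I keratin.

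KRT19, the smallest of the keratins and one of simple epithelia, was just outside the detection level. Its brighter probe set read 61.1 on the sh-BCLAF1-L array and 46.4 on the sh-Luci array, a difference of 0.39, and the dimmer one read 22.0 and 20.2, a difference of 0.12. Both differences lay inside the central 95% of probe sets of like brightness. KRT20, a marker of differentiated colonocytes, read 14.6 on the sh-BCLAF1-L array and 15.6 on the sh-Luci array. That is far below the detection level on both arrays, and no direction is drawn from it.

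VIM, the type III filament protein, was higher on its bright probe set, which read 453 on the sh-BCLAF1-L array and 378 on the sh-Luci array. The difference was 0.26, or 1.20-fold, and 7.01% of detected genes had a higher one. It lay inside the central 95% of its intensity class, from -0.31 to 0.34. The other VIM probe set read 10.2 on the sh-BCLAF1-L array and 11.9 on the sh-Luci array, near the bottom of the scale, with a difference of -0.20. The median over both VIM probe sets was 0.031, so the higher VIM value rests on the bright probe set alone. Both VIM probe sets have an _s_at or _x_at name, and matches to other transcripts were not tested. VIM and KRT18, the filament proteins often used to tell mesenchymal from epithelial cells, differed from each other by -0.80 (KRT18 minus VIM), or 1.74-fold. They had the highest and the lowest difference of the detected members. KRT8, the partner of KRT18, differed from VIM by only -0.24 (KRT8 minus VIM), or 1.18-fold. In RNA from a whole culture, fewer cells of a kind and less RNA per cell cannot be told apart.

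**Figure D2:**
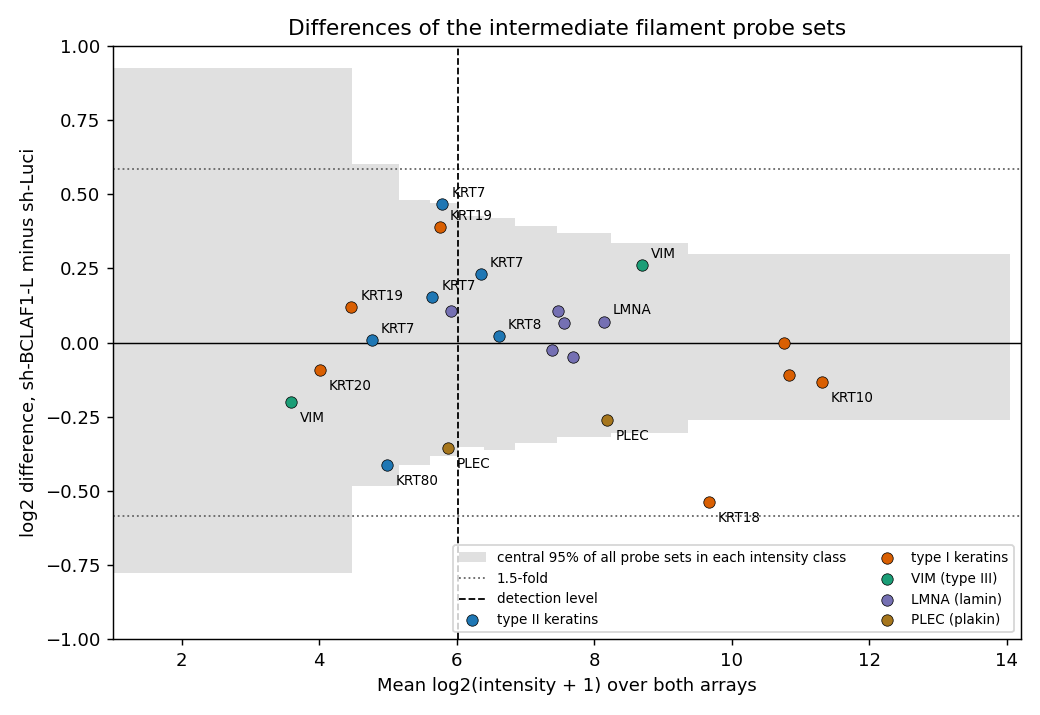
Difference in log2(intensity + 1), sh-BCLAF1-L minus sh-Luci, of each of the 23 probe sets against its mean over both arrays, coloured by filament class. The grey band is the central 95% of all probe sets in each of 10 intensity classes, and the dotted lines mark 1.5-fold; KRT18 at -0.54 is the only probe set outside the band and none passes 1.5-fold.

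LMNA, which encodes lamins A and C, was the gene with the most probe sets, and all of them read nearly the same on both arrays. Its brightest probe set read 287 on the sh-BCLAF1-L array and 274 on the sh-Luci array, a difference of 0.071 or 1.05-fold. The other detected probe sets read 202 against 209, 192 against 183, 183 against 170, and 165 against 167, with the sh-BCLAF1-L value first. The differences of all 6 probe sets lay between -0.050 and 0.11, with 4 higher and 2 lower. No direction was shared by the probe sets, and on the only one without an _s_at or _x_at name the difference was -0.023. The sources used here do not tell which of the lamin forms a probe set reads.

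PLEC, which encodes plectin, was lower on both of its probe sets. The detected one read 265 on the sh-BCLAF1-L array and 317 on the sh-Luci array, a difference of -0.26 or 1.20-fold, and 4.42% of detected genes had a lower one. The dimmer one read 50.7 on the sh-BCLAF1-L array and 65.1 on the sh-Luci array, a difference of -0.35. Both values lay inside the central 95% of their intensity classes. After KRT18, PLEC had the lowest difference of the detected members, and it differed from VIM by -0.52, or 1.43-fold.

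Keratins outside the 10 genes were mostly dim in RKO cells, and none of those detected reached 1.5-fold. Of 24 further type I keratins listed, 19 had a probe set with 1 symbol and 5 were detected, 3 higher and 2 lower, with a median of 0.21. The hair keratin KRT31 read 73.2 on the sh-BCLAF1-L array and 56.0 on the sh-Luci array, and KRT32, another hair keratin, read 132 and 103, with differences of 0.38 and 0.35. Of 23 further type II keratins, 17 had a probe set and 10 were detected, 6 higher and 4 lower, with a median of 0.061. The hair keratin KRT85 read 137 on the sh-BCLAF1-L array and 107 on the sh-Luci array (0.35), and KRT72, of the hair root sheath, read 72.4 and 62.9 (0.20). KRT38 reached 1.56-fold, but at 32.3 on the sh-BCLAF1-L array and 20.4 on the sh-Luci array it was below detection. Without the detection filter, 1.19% of all genes were at least 1.5-fold higher.

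Filament proteins of muscle and nerve gave small differences. Of 11 type III, type IV and lens genes, 7 were detected, 5 higher and 2 lower, with a median of 0.047. GFAP, the astrocyte filament protein, differed by 0.26 on its brightest probe set and by -0.28 on another, so its probe sets disagree. SYNM, the filament protein synemin, read 84.2 on the sh-BCLAF1-L array and 99.9 on the sh-Luci array, a difference of -0.25.

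Among the detected genes of the 7 related lists, the lowest difference was that of a lamin partner. BANF1, a small DNA-binding protein that links chromatin to the inner nuclear membrane, read 402 on the sh-BCLAF1-L array and 544 on the sh-Luci array, a difference of -0.44 on 1 probe set. The B-type lamins went opposite ways: LMNB1 read 400 on the sh-BCLAF1-L array and 325 on the sh-Luci array (0.30), and LMNB2 read 500 and 565 (-0.17). Over the 17 lamin and nuclear envelope genes, 15 were detected, 6 higher and 9 lower, with a median of -0.087. None passed 1.5-fold.

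Plakins and junction genes, which anchor keratins at desmosomes and hemidesmosomes, did not pass 1.5-fold either. Of the 6 plakins other than PLEC, all were detected, 4 higher and 2 lower, with a median of 0.042. DSP, which ties keratins to desmosomes, read 279 on the sh-BCLAF1-L array and 318 on the sh-Luci array (-0.19), and EPPK1 differed by -0.31 on its brightest probe set and by 0.063 on another. Of 16 desmosome and hemidesmosome genes, 14 were detected, 5 higher and 9 lower, with a median of -0.048. PKP2, a plaque protein of desmosomes, read 138 on the sh-BCLAF1-L array and 181 on the sh-Luci array (-0.39). CD151, a tetraspanin of hemidesmosomes, read 739 and 919 (-0.31) in the same order. DSG2, the desmosomal cadherin of simple epithelia, read 1550 and 1518 (0.030), and JUP, or plakoglobin, read 69.3 and 65.9 (0.072).

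Of 20 genes for proteins that bind or modify filaments, 16 were detected, 10 higher and 6 lower, with a median of 0.048. FAM83H, which brings casein kinase 1 to keratin filaments, read 428 on the sh-BCLAF1-L array and 522 on the sh-Luci array (-0.29). TRIM29, a ubiquitin ligase of stratified epithelia, was higher on all 3 of its probe sets, by 0.22 to 0.35. No gene of this list passed 1.5-fold.

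**Figure D3:**
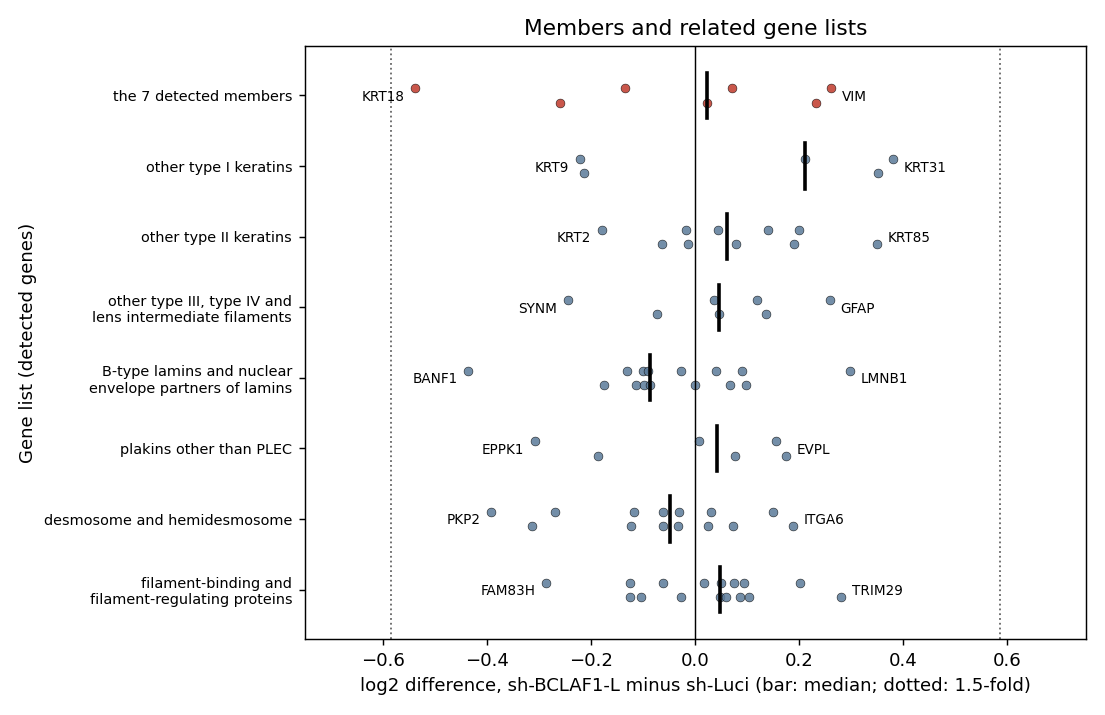
Difference in log2(intensity + 1), sh-BCLAF1-L minus sh-Luci, of the detected genes of the filament group and of 7 related lists, with the genes at each end named. Black bars are medians, which lie between -0.087 for the lamin list and 0.21 for the further type I keratins, and no gene crosses the dotted 1.5-fold lines.

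The cell type of the line was checked against marker genes. Of the 8 epithelial markers, KRT8 and KRT18 are among the genes described above. Of the other 6, 4 were detected, 1 higher and 3 lower. The adhesion protein EPCAM read 472 on the sh-BCLAF1-L array and 477 on the sh-Luci array (-0.016), the junction protein CLDN4 read 204 and 220 (-0.11), and CLDN7 read 96.5 and 88.9 (0.12). ELF3, an epithelial transcription factor, read 98.8 on the sh-BCLAF1-L array and 122 on the sh-Luci array, a difference of -0.30. CDH1, or E-cadherin, and the splicing factor ESRP1 were below detection on both arrays. These 6 genes summed to 942 on the sh-BCLAF1-L array and 977 on the sh-Luci array. The list with KRT8 and KRT18 summed to 1714 and 2052, and most of the difference in the full sum is that of KRT18, the brightest probe set of the list. These sums and those below include undetected genes and weigh bright probe sets most, so they do not measure abundance.

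Markers of other cell types were partly above the detection level, which is a rank among all probe sets and does not by itself show that a gene is expressed. Of 8 fibroblast markers, 6 were detected, 4 higher and 2 lower, and the list summed to 1018 on the sh-BCLAF1-L array and 949 on the sh-Luci array. Of 4 endothelial markers, 2 were detected (PECAM1 and VWF), with sums of 346 and 331, and of the 4 blood cell markers with a probe set, 1 was (CD3E, -0.27), with sums of 224 and 235. All 3 muscle markers were detected, with sums of 360 on the sh-BCLAF1-L array and 347 on the sh-Luci array, and 1 of 3 neural and glial markers, GFAP, with sums of 258 and 226. Of 6 colonocyte and goblet markers, 4 were detected, 3 higher and 1 lower, with sums of 452 and 431, while KRT20 and CDH17 were not detected. The blood marker PTPRC and the endothelial CDH5 and KDR were also below detection. The lowest deposited value was 1 on both arrays, so no marker could be listed at 0. The part of these markers in the VIM and KRT18 values was not tested.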

How the data were processed

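RNA from 2 cultures was hybridised to 2 Affymetrix arrays, 1 per group. The deposited values are linear intensities per probe set, made by the authors with RMA per the submitters' processing notes. For the program, its version and the final scaling, nothing is given in the sources used here. RMA draws the arrays' distributions together, so a shift of all genes could be hidden. The deposited distributions were close but not identical, with medians of 84.5 on the sh-BCLAF1-L array and 82.7 on the sh-Luci array. The table's 54675 probe sets included 41097 with 1 gene symbol in the platform annotation, and 41043 of these were matched to RefSeq (GRCh38.p14) by Entrez identifier to update symbols. A gene took the probe set with the highest mean log2(value + 1). With 1 array per group no test was possible, and differences are set beside the SD between 6752 genes' own probe sets and the spread of all probe sets in 10 equal classes of mean intensity. Precision is limited by the number of arrays.

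The members and gene lists were chosen with earlier results of these data known. Named genes were all members, and from each of the 7 related lists any gene past 1.5-fold, the 2 detected genes with the largest differences, and LMNB1, LMNB2, DSP, DSG2 and JUP. Genes of the cell type marker lists were named outside this rule, after their values were seen. No genes like a member in pattern were sought, since 2 arrays give 1 difference per gene. The calls were tested on simulated data, with changes larger than any seen for a member. That test says nothing about the spread between cultures or arrays. Python 3.11.15, pandas 2.3.3 and statsmodels 0.14.6 were used.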

Additional observations from a re-analysis of the deposited data

How the results depend on the processing

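No paired analysis was possible because the groups have a single array apiece, which also leaves no replicate to drop. The count of members at least 1.5-fold higher or lower stayed at 0 with the median over probe sets, without _s_at and _x_at probe sets, after subtraction of the median difference or a loess curve (span 0.3), after quantile normalization, with a pseudocount of 32, without a filter, with detection set at the 60th percentile and at 2-fold. Of these settings, the stricter filter and the 2-fold threshold could only return 0, because no detected member passed 1.5-fold in the main setting. At the lower threshold of 0.32 on the log2 scale, 1 member (KRT18) was lower and 0 higher. The count of members higher was 1 of 3 without _s_at and _x_at probe sets and 2 of 5 with detection at the 60th percentile, where fewer genes remained. VIM moved to 0.031 with the median over its probe sets, which adds the dim one. The median of the members ran from -0.13 with the stricter filter to 0.023. KRT18, KRT8, KRT10 and VIM had no value without _s_at and _x_at probe sets, so that setting does not check them. Only KRT7, LMNA and PLEC kept a value there. Depth is not known for arrays; dim probe sets spread most.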

Other observations

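Probe sets assigned to relatives of the filament genes gave values that entered no comparison. The antisense gene KRT10-AS1 read 257 on the sh-BCLAF1-L array and 244 on the sh-Luci array, a difference of 0.072. The KRT8 pseudogene KRT8P12 had 2 detected probe sets, which read 71.0 on the sh-BCLAF1-L array and 76.3 on the sh-Luci array, and 75.8 and 78.0, with differences of -0.10 and -0.040. The KRT19 pseudogene KRT19P2 was below detection at 51.1 and 53.0.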
